A study of Mus musculus with 2 samples.

Results

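Of the 19595 genes in the deposited count table, 60 protein-coding genes belong to 14 families that build and organise synaptic contacts. They were taken by name alone: every protein-coding gene whose symbol is Nrxn, Nlgn, Lrfn, Lrrtm, Slitrk, Flrt, Tenm, Adgrl, Cntn, Cntnap, Dlg, Dlgap, Shank or Homer followed by a digit. The table comes from RNA sequencing of total RNA from neural stem cells of the brain, taken from mice of the ICR strain at embryonic day 13. The knockdown library is labelled sh1, with genotype KO, and the control library is labelled psicor, with genotype WT. The series title names Ccdc25 as the gene under study, so sh1 is read here as a knockdown of Ccdc25. Although the design text speaks of triplicates, the table holds 1 column of counts per group. The labels do not spell out what sh1 and psicor stand for, nor give the time after knockdown, the brain region or how many animals stand behind a column. With a single library on each side there is no replicate check, and no difference below was tested.

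Neurexins are presynaptic receptors that bind postsynaptic partners across the cleft, among them the neuroligins, the LRRTM proteins and the latrophilins. Many postsynaptic adhesion proteins dock through their tails to the PDZ domains of Dlg scaffolds, which Dlgap proteins tie to Shank and, through it, to Homer. Contactins, teneurins, latrophilins and FLRT proteins also guide axons and migrating neurons before synapses form, so embryonic neural cells are a usual place to find them.

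The knockdown library held 16058407 counts and the control library 16549682. Levels are given as CPM, the counts divided by the scaled library total, and log2 folds are knockdown over control, with 0.5 added to each count. A ratio is followed by its exact 95% interval, which covers counting error only. Ccdc25, a coiled-coil protein, had 411 counts in the knockdown and 553 in the control library, a ratio of 0.794 (0.697 to 0.904).

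The families differed mainly on the low side. A minimum of 1 CPM, taken as the mean of both libraries, was passed by 56 members, and of these 19 were at least 2-fold lower in the knockdown library (33.9%), 37 lay within 2-fold and 0 were at least 2-fold higher. Over all 14158 genes past the same minimum, 7.76% were at least 2-fold lower and 7.64% at least 2-fold higher. For protein-coding genes the share at least 2-fold lower was 7.77% and the share at least 2-fold higher 6.97%. The median log2 fold of the 56 members was -0.61, beside -0.013 for all protein-coding genes past the minimum. For 38 members the whole counting interval was under a ratio of 1, for 6 it was over 1, and for 12 it held 1. The matching shares over all genes were not counted, so these interval counts describe the members only. Cntn5, Cntnap3, Cntnap5a and Dlgap2 passed the minimum through the control library alone and so had to be low in the other, while 15 of the 19 lower members stood at 1 CPM or more in both. Over all 60 members, with no minimum, 22 were at least 2-fold lower and 1 at least 2-fold higher, and the median log2 fold was -0.67. The shares over all genes with no minimum were not counted, so these counts describe the members only.

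The summed neuronal markers lay below the control, as did most of these families. Of 10 neuronal markers, 6 were at least 2-fold lower, and the 10 summed to 1313 CPM in the knockdown and 2835 CPM in the control library. Map2 stood above its control level, at 527 CPM in the knockdown and 489 CPM in the control library. Of 10 markers of GABA neurons, 7 were at least 2-fold lower, with sums of 101 CPM in the knockdown and 320.4 CPM in the control. Dlx2 stood above its control level, at 32.7 CPM in the knockdown and 25.5 CPM in the control. Markers of oligodendrocyte lineage cells summed to 5324 CPM in the knockdown and 3012 CPM in the control library, with 8 of 10 at least 2-fold higher. Astrocyte markers summed to 6055 CPM in the knockdown and 650.0 CPM in the control, with 7 of 10 at least 2-fold higher. Markers of radial glia and of neural stem cells, the cell type that the labels name, were abundant in both libraries. They summed to 8586 CPM in the knockdown and 6632 CPM in the control, and 2 of 10 were at least 2-fold higher. Only Hes1 stood below its control level, at 35.0 CPM in the knockdown and 58.3 CPM in the control. The 8 mesenchyme markers summed to 41.1 CPM in the knockdown and 333 CPM in the control, the 6 past the minimum all being at least 2-fold lower and Lum standing at 0 in the knockdown library. Microglia and macrophage markers, 9 of 10 listed, summed to 12.2 CPM in the knockdown and 37.3 CPM in the control, with Csf1r, Cx3cr1, Ptprc and Tmem119 at 0 in the knockdown library. The 4 of 6 endothelial markers listed summed to 1.27 CPM in the knockdown and 3.38 CPM in the control, and 1 of them passed the minimum. Cdh5 had 0 counts in the knockdown and 7 in the control library. Only Pecam1 stood above its control level, with 9 counts in the knockdown and 8 in the control. The 2 of 6 erythroid markers listed summed to 0.380 CPM in the knockdown and 0.415 CPM in the control. No marker in the table was at 0 in the control library. The part that these cell type differences have in the results below was not tested, and in bulk RNA fewer cells of a type cannot be told apart from less RNA per cell.

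**Figure D1:**
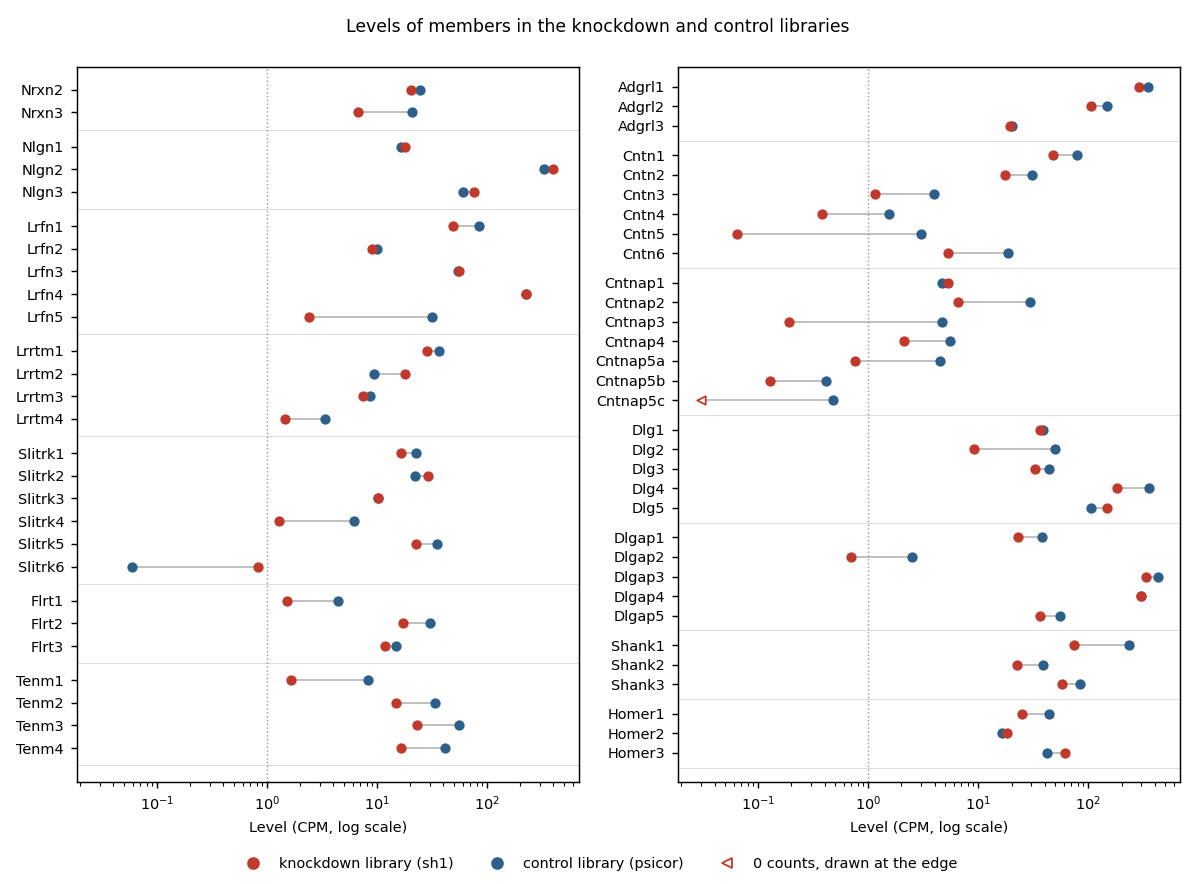
Levels of the members in CPM on a log scale, by family, with a red point for the knockdown library, a blue point for the control library and a grey line between them. The dotted line marks 1 CPM, and Cntnap5c, with 0 counts in the knockdown library, is drawn at the left edge; the longest lines belong to Cntn5 and Cntnap3, and Slitrk6 is the member furthest above its control level.

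The neurexins are receptors on the presynaptic side. Nrxn3 had 6.66 CPM in the knockdown and 20.5 CPM in the control library, a ratio of 0.324 (0.258 to 0.405). Nrxn2 lay nearer its control level, at 20.2 CPM in the knockdown and 24.6 CPM in the control, with a log2 fold of -0.29 and a ratio of 0.819 (0.705 to 0.950). Both were lower in the knockdown library, Nrxn3 by more than 2-fold.

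The neuroligins, the classic postsynaptic partners of neurexins, were the 1 adhesion family whose members all stood above their control level. Nlgn2, the isoform known from inhibitory synapses, had 399.9 CPM in the knockdown and 331 CPM in the control library, a ratio of 1.21 (1.16 to 1.25). Nlgn3, which glial cells also express, had 75.6 CPM in the knockdown and 59.8 CPM in the control, a ratio of 1.26 (1.16 to 1.38). For Nlgn1, the isoform of excitatory synapses, the interval held 1, at 17.9 CPM in the knockdown and 16.5 CPM in the control. All 3 lay within 2-fold, and the family's summed CPM had a ratio of 1.21 (1.17 to 1.25).

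Among the Lrfn genes, which encode the SALM adhesion proteins of the postsynaptic membrane, Lrfn5 stood apart from the other members. Lrfn5 had 38 counts (2.41 CPM) in the knockdown and 530 counts (31.5 CPM) in the control library, a ratio of 0.0766 (0.0536 to 0.107). Lrfn4 had 3548 counts in the knockdown and 3764 counts in the control, a ratio of 1.01 (0.962 to 1.05). Lrfn3 had 55.5 CPM in the knockdown and 54.4 CPM in the control, a ratio of 1.02 (0.929 to 1.12). Both were level within counting error, and after scaling to total counts their log2 folds turned negative, at -0.04 for Lrfn4 and -0.02 for Lrfn3. Lrfn1 was lower, at 49.1 CPM in the knockdown and 83.8 CPM in the control (log2 fold -0.77), and Lrfn2 had 8.94 CPM in the knockdown and 10.03 CPM in the control. Per kilobase of exon, Lrfn4 made up 65.7% of the family's summed level in the knockdown and 58.7% in the control library, and Lrfn5 made up 0.248% in the knockdown and 2.92% in the control.

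Promoter sequences are shown for the lowest Lrfn gene and the most abundant one, and for a pair of low members that differ in CpG content. Each is the stretch from 250 to 21 bases upstream of the RefSeq start (GRCm38.p6), 5′ to 3′ on the gene's strand, with CpG dinucleotides in capitals. The Lrfn5 stretch lies at chr12:61522917-61523146 (plus strand), that of Lrfn4 at chr19:4615688-4615917 (minus), of Cntn5 at chr9:10904796-10905025 (minus) and of Lrrtm4 at chr6:80018627-80018856 (plus).
Lrfn5: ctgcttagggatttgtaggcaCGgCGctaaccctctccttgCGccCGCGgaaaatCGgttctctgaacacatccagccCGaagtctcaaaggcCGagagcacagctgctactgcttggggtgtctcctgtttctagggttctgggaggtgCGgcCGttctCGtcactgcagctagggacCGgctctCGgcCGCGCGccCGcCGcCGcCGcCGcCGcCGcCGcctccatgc
Lrfn4: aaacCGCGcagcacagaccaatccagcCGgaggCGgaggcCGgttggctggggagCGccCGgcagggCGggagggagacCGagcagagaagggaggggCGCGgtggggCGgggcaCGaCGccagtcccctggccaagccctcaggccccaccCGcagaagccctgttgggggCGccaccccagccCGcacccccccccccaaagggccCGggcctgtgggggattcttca
Cntn5: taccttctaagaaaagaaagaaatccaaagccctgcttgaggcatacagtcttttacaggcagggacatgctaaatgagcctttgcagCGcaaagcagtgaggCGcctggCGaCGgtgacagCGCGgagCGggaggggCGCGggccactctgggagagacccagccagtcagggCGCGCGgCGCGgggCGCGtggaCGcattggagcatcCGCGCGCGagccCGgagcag
Lrrtm4: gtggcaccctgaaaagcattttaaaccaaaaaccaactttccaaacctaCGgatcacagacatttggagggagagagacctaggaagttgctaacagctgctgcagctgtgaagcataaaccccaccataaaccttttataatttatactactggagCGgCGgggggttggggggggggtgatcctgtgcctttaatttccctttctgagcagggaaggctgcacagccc
The letters CG occur 24 times upstream of Lrfn5, 18 times upstream of Lrfn4, 22 times upstream of Cntn5 and 3 times upstream of Lrrtm4. Cntn5 and Lrrtm4 were picked for this difference, so the pair shows only that low members with many and with few CpG both exist. A RefSeq start lay within 1000 bases of the table's gene start for 33 members. Of these, the 8 lower ones had a median of 7 CpG (2 to 24) and the 23 within 2-fold a median of 8 (3 to 36), beside 5 over all 32851 promoter windows of this length, and the remaining 2, Slitrk6 and Cntnap5b, were under the minimum. At least 10 CpG were found in 4 of the 8 lower members and in 9 of the 23 others, beside 34.7% of all windows, and at least 1 in 91.1% of all windows. Among the 8 lower members, Cntn5 and Cntnap3 passed the minimum through the control library alone.

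The Lrrtm genes encode leucine-rich repeat ligands of neurexins and glypicans. Lrrtm2 had the largest log2 fold above 0 of any member past the minimum, 0.93, with 284 counts (18.01 CPM) in the knockdown and 159 counts (9.44 CPM) in the control library. Its ratio was 1.91 (1.57 to 2.33). Lrrtm2 lies wholly inside Ctnna1 on the opposite strand and shares 95 exonic bases with it, and whether reads were counted by strand is not given in the sources used here. Ctnna1 itself had 124 CPM in the knockdown and 149 CPM in the control library. Lrrtm4 was lower at 1.46 CPM in the knockdown and 3.38 CPM in the control, a ratio of 0.431 (0.254 to 0.711), the only Lrrtm gene past 2-fold. Lrrtm1 had 28.4 CPM in the knockdown and 36.1 CPM in the control and Lrrtm3 7.42 CPM in the knockdown and 8.60 CPM in the control, with log2 folds of -0.35 and -0.21.

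The Slitrk genes encode postsynaptic ligands of receptor protein tyrosine phosphatases. Slitrk4 was the 1 member past the minimum that was at least 2-fold lower, with 20 counts (1.27 CPM) in the knockdown and 103 counts (6.11 CPM) in the control library, a ratio of 0.207 (0.122 to 0.337). The other Slitrk genes past the minimum lay on both sides of the control. Slitrk5 had 22.6 CPM in the knockdown and 34.7 CPM in the control and Slitrk1 16.3 CPM in the knockdown and 22.3 CPM in the control, with log2 folds of -0.62 and -0.45. Slitrk2 had 28.7 CPM in the knockdown and 22.02 CPM in the control, a log2 fold of 0.38. Slitrk3 had 10.2 CPM in the knockdown and 10.1 CPM in the control, a log2 fold of 0.02 that was -0.03 after scaling to total counts. Slitrk6, under the minimum, had 13 counts in the knockdown and 1 in the control library, a ratio of 13.9 with a wide interval (2.09 to 590.4). It was the only one of the 60 members at least 2-fold higher when no minimum was applied.

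The teneurins, large transmembrane ligands of latrophilins, were at least 2-fold lower in all 4 cases. Tenm3 had 23.1 CPM in the knockdown and 55.1 CPM in the control library, a ratio of 0.420 (0.371 to 0.474). Tenm4 had 16.4 CPM in the knockdown and 41.4 CPM in the control and Tenm2 15.0 CPM in the knockdown and 33.4 CPM in the control, with log2 folds of -1.33 and -1.16. Tenm1 was furthest, at 1.65 CPM in the knockdown and 8.31 CPM in the control, a ratio of 0.198 (0.125 to 0.303). The Tenm family had a ratio of summed CPM of 0.406 (0.376 to 0.439).

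The latrophilins, the adhesion G-protein-coupled receptors encoded by Adgrl genes, lay closer to the control than their teneurin ligands. Adgrl1 had 287 CPM in the knockdown and 348 CPM in the control library, Adgrl2 had 106 CPM in the knockdown and 147 CPM in the control, and Adgrl3 had 19.4 CPM in the knockdown and 20.4 CPM in the control. The ratio was 0.825 (0.793 to 0.858) for Adgrl1, 0.719 (0.675 to 0.765) for Adgrl2 and 0.953 (0.814 to 1.12) for Adgrl3. All were within 2-fold, and the interval of Adgrl3 held 1.

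The FLRT proteins bind latrophilins and the Unc5 receptors. Flrt1 had 24 counts (1.52 CPM) in the knockdown and 74 counts (4.39 CPM) in the control library, a ratio of 0.347 (0.209 to 0.556). Flrt2 had 17.3 CPM in the knockdown and 30.2 CPM in the control and Flrt3 11.8 CPM in the knockdown and 15.0 CPM in the control, with log2 folds of -0.80 for Flrt2 and -0.34 for Flrt3. All 3 were below their control level. Flrt1 lies inside Macrod1 on the opposite strand with 0 exonic bases shared, and Macrod1 was higher in the knockdown library, at 29.2 CPM beside 13.7 CPM in the control.

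Contactins are glycolipid-anchored adhesion proteins of axons and glia, and 4 of the 6 genes were at least 2-fold lower, 3 of them past the minimum. Cntn5 had 1 count in the knockdown and 51 in the control library, a ratio of 0.0210 (5.20e-04 to 0.122). Cntn6 had 84 counts in the knockdown and 313 counts in the control and Cntn3 18 counts in the knockdown and 66 counts in the control, with ratios of 0.287 (0.223 to 0.366) and 0.291 (0.163 to 0.497). Cntn4, under the minimum, had 6 counts in the knockdown and 26 in the control. The more abundant members were less far below the control. Cntn1, which oligodendrocyte lineage cells also express, had 47.2 CPM in the knockdown and 78.2 CPM in the control, and Cntn2, a marker of early outgrowing axons, 17.6 CPM in the knockdown and 30.5 CPM in the control. Their log2 folds were -0.73 and -0.80. Per kilobase of exon, Cntn1 made up 63.0% of the summed contactin level in the knockdown and 52.3% in the control library, and Cntn6 made up 10.3% in the knockdown and 18.03% in the control.

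The Caspr proteins, encoded by Cntnap genes, partner contactins on axons, and this family was the lowest of the 14. Its summed CPM was 14.9 in the knockdown and 49.8 in the control library, a ratio of 0.299 (0.258 to 0.346). Cntnap2, which clusters potassium channels beside the node of Ranvier, had 102 counts (6.47 CPM) in the knockdown and 499 counts (29.6 CPM) in the control, a ratio of 0.218 (0.175 to 0.271). Cntnap3 had 3 counts in the knockdown and 78 counts in the control, a ratio of 0.0411 (0.00830 to 0.125). Cntnap5a had 12 counts in the knockdown and 75 counts in the control and Cntnap4 33 counts in the knockdown and 94 counts in the control, with log2 folds of -2.50 and -1.40. Cntnap1, the axonal Caspr of the paranode, differed from the others: it had 83 counts in the knockdown and 79 in the control, a ratio of 1.12 (0.815 to 1.55). Cntnap1 shares 233 exonic bases with Plekhh3 on the opposite strand, which had 1036 counts in the knockdown and 1065 counts in the control. Cntnap5b had 2 counts in the knockdown and 7 in the control. Cntnap5c had 0 counts in the knockdown and 8 counts in the control. The upper end of its ratio's interval was 0.626. How reads shared by the close Cntnap5 copies were assigned is not given in the sources used here.

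**Figure D2:**
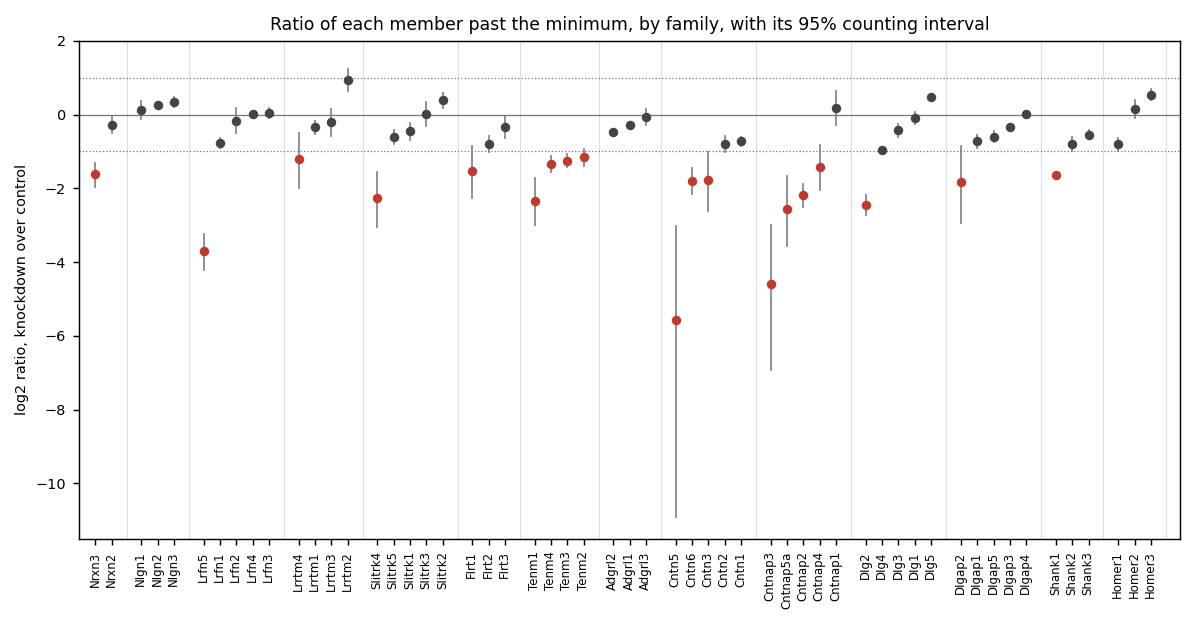
The log2 ratio of CPM, knockdown over control, for members past the minimum, sorted within each family, with vertical bars for the 95% counting interval. Red points are the 19 members at least 2-fold lower and dotted lines mark 2-fold; no point lies above the upper dotted line, and the widest bars belong to Cntn5 and Cntnap3, with 1 and 3 counts in the knockdown library.

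The Dlg genes encode the PDZ scaffolds of the postsynaptic density and of cell junctions, and their members lay on both sides of the control. Dlg2, which encodes PSD-93, had 145 counts (9.19 CPM) in the knockdown and 845 counts (50.1 CPM) in the control library, a ratio of 0.183 (0.153 to 0.219). Dlg4, which encodes PSD-95, the main scaffold of excitatory synapses, had 184 CPM in the knockdown and 357 CPM in the control, a ratio of 0.514 (0.492 to 0.537) just inside 2-fold. After scaling to total counts the log2 fold of Dlg4 was -1.01, just beyond it. Dlg5, a polarity protein of progenitor and epithelial junctions, was the 1 member above its control level, at 147 CPM in the knockdown and 107 CPM in the control, a ratio of 1.38 (1.30 to 1.47). Dlg1, also an epithelial and junctional scaffold, had 36.0 CPM in the knockdown and 38.3 CPM in the control, a ratio of 0.941 (0.839 to 1.05). Dlg3, which encodes SAP102, had 32.5 CPM in the knockdown and 43.8 CPM in the control, a log2 fold of -0.43. Per kilobase of exon, Dlg5 led the family in the knockdown library with 42.6% of its summed level, against 23.4% in the control. Dlg4 made up 34.1% in the knockdown and 50.3% in the control library, where it led. By CPM, Dlg4 stood above Dlg5 in both libraries. The order in the knockdown library thus depends on merged exon lengths, 13251 bases for Dlg4 and 8491 for Dlg5. These lengths take in the exons of all annotated transcripts, whichever are expressed.

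Dlgap proteins link Dlg to Shank, apart from Dlgap5, a protein of the mitotic spindle that shares the family's domain. Dlgap2 had 11 counts in the knockdown and 42 in the control library, a ratio of 0.280 (0.130 to 0.553). Dlgap1 had 23.0 CPM in the knockdown and 38.1 CPM in the control and Dlgap5 36.1 CPM in the knockdown and 54.8 CPM in the control, with log2 folds of -0.73 and -0.60. The most abundant members were nearer the control: Dlgap3 had 335 CPM in the knockdown and 425 CPM in the control, a ratio of 0.788 (0.761 to 0.817). Dlgap4 had 304 CPM in the knockdown and 299.6 CPM in the control, a ratio of 1.01 (0.974 to 1.06), and its log2 fold of 0.02 was -0.03 after scaling to total counts.

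Shank genes encode the deep scaffold of the postsynaptic density, and all 3 were below their control level. Shank1 had 1175 counts (74.5 CPM) in the knockdown and 3943 counts (234 CPM) in the control library, a ratio of 0.318 (0.298 to 0.340). Shank2 had 22.5 CPM in the knockdown and 39.0 CPM in the control and Shank3 57.9 CPM in the knockdown and 84.3 CPM in the control, with log2 folds of -0.79 and -0.54. The summed CPM of the family had a ratio of 0.433 (0.413 to 0.454), and 0.652 without Shank1.

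Homer proteins join Shank to metabotropic glutamate receptors, and their genes diverged. Homer1 had 25.0 CPM in the knockdown and 43.6 CPM in the control library, a ratio of 0.573 (0.506 to 0.648). Homer3 had 61.0 CPM in the knockdown and 42.0 CPM in the control, a ratio of 1.45 (1.32 to 1.60), and Homer2 had 18.1 CPM in the knockdown and 16.4 CPM in the control, a ratio of 1.10 (0.929 to 1.30). Homer1 was thus lower and Homer3 higher, both within 2-fold. Homer3 shares 874 exonic bases with Ddx49 on the opposite strand, which had 58.5 CPM in the knockdown and 43.4 CPM in the control. The family's summed CPM had a ratio of 1.02 (0.953 to 1.09), and 0.717 without Homer3.

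By summed CPM, 12 of the 14 families had ratios below 1 and 2 had ratios above 1. These 2 were Nlgn and Homer, and the interval of Homer held 1. After scaling to total counts the ratio of Homer was 0.984. The lowest were Cntnap, Tenm, Shank and Cntn, the last with a ratio of 0.528 (0.491 to 0.567). Flrt followed at 0.618 (0.551 to 0.692) and Dlg at 0.685 (0.664 to 0.707). Adgrl had 0.7998 (0.774 to 0.826), Slitrk 0.838 (0.778 to 0.903), Lrfn 0.846 (0.816 to 0.877) and Dlgap 0.852 (0.831 to 0.874), and of these only the intervals of Adgrl and Dlgap did not overlap. Nrxn had 0.915 (0.862 to 0.971) and Lrrtm 0.961 (0.876 to 1.05). A sum is carried by the abundant members, so families with the same sum can hold members that differ. In Lrrtm, whose interval held 1, Lrrtm2 was higher and Lrrtm4 lower. Grouped by role, contactins and Caspr had 7 of 10 members past the minimum at least 2-fold lower, latrophilins with teneurins and FLRT 5 of 10, scaffolds 3 of 16, and the neurexin, neuroligin, Lrfn, Lrrtm and Slitrk genes 4 of 20. Of all genes past the minimum, 7.76% were. In the contactin and Caspr group, 3 of the 7 (Cntn5, Cntnap3 and Cntnap5a) passed the minimum through the control library alone. Differences between these groups were not tested.

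**Figure D3:**
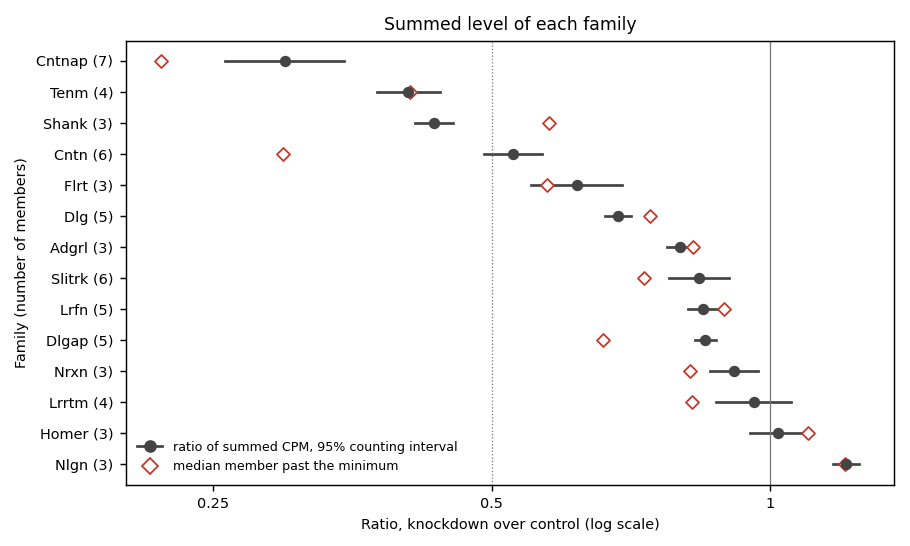
Ratio of the summed CPM of each family, knockdown over control on a log scale, as filled points with 95% counting intervals, and the median member past the minimum as open diamonds; the number of members is in brackets. Cntnap, Tenm and Shank lie left of the dotted line at a ratio of 0.5, and Nlgn lies right of 1 with its whole interval.

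Lower members were more frequent among the less abundant ones. At a mean of 10 CPM or more, 9 of 43 members were at least 2-fold lower, against 10 of the 13 members with a mean from 1 to under 10 CPM. Among other protein-coding genes the shares were 4.78% of 9790 at 10 CPM or more and 17.5% of 2875 below it. Of the 10 lower members under 10 CPM, 4 passed the minimum through the control library alone. Among the 10 members with the highest mean CPM, Shank1 was the 1 at least 2-fold lower. Genes that are low in 1 library have lower means by construction, so abundance here is a description and not an independent property.

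Genomic span, the distance from the first to the last annotated base, was a feature that the choice by name did not use, and it was looked at after the values were seen. Of the 22 members past the minimum that span at least 200 kb, 15 were at least 2-fold lower (68.2%), with a median log2 fold of -1.37. Of these 15, Cntn5, Cntnap5a and Dlgap2 passed the minimum through the control library alone. They therefore had to lie below their control level, though not by 2-fold. With no minimum, a setting for which other genes were not counted, 18 of 25 members of that span were at least 2-fold lower. Of the 20 members under 50 kb, 2 were (10%), and of the 14 members between these bounds also 2 (14.3%). Among other protein-coding genes past the minimum, 20.6% of the 811 that span at least 200 kb were at least 2-fold lower, with a median log2 fold of -0.22, beside 9.76% at 50 to 200 kb and 5.73% under 50 kb. Across the 56 members the log2 fold and the log10 span had a Pearson r of -0.48 and a Spearman rho of -0.50, and across the 52 at 1 CPM or more in both libraries -0.46 and -0.44. Across 12665 other protein-coding genes these were -0.091 and -0.088. All points come from the same pair of libraries, and genes are not independent replicates. Among the long and low members were Lrfn5 at chr12:61523150-61858342, Dlg2 at chr7:91090706-92449247 and Cntnap2 at chr6:45059357-47304213 (GRCm38). Long members were not uniformly low. Nlgn1, which spans 906 kb, and Adgrl3, which spans 805 kb, both had intervals that held 1, and Slitrk4 and Flrt1 were lower with spans of 12.1 kb and 13.7 kb.

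**Figure D4:**
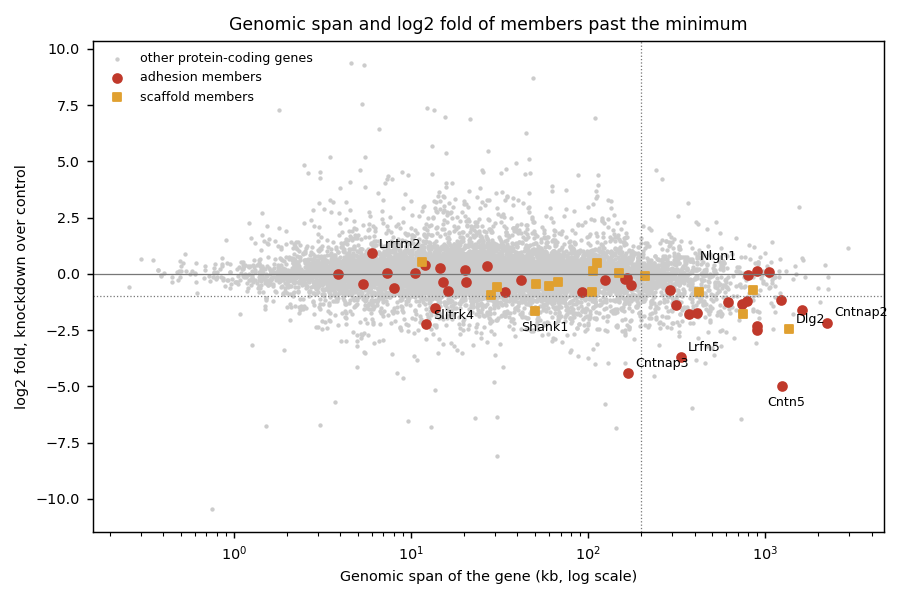
Genomic span in kb (log scale) against the log2 fold, knockdown over control, for adhesion members (red circles), scaffold members (yellow squares) and other protein-coding genes (grey) with a mean of at least 1 CPM. Right of the dotted line at 200 kb, 15 of 22 members lie below the dotted line at 2-fold lower, while Nlgn1 lies near 0.

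Genes outside the 14 gene names, listed as binding these families or sharing their junctions, were also counted and are called partners here. Of a list of 81 such genes, 78 passed the minimum, 16 were at least 2-fold lower (20.5%, beside 7.76% of all genes) and 54 within 2-fold. The 8 at least 2-fold higher (10.3%) were a share near the 7.64% of all genes, so the higher genes are named here as values only. The median log2 fold of the 78 partner genes past the minimum was -0.15. The 8 furthest below the control were the secreted synaptic organiser Lgi1, the FLRT receptor Unc5d, the AMPA receptor partner Cacng2, the calsyntenins Clstn3 and Clstn2, the axonal adhesion proteins L1cam and Chl1, and the netrin-G protein Ntng1. Clstn3 had 29.7 CPM in the knockdown and 108 CPM in the control library, and Chl1 had 54.8 CPM in the knockdown and 164 CPM in the control. Cacng2 had 3.36 CPM in the knockdown and 14.7 CPM in the control. Their log2 folds were -1.86 for Clstn3, -1.58 for Chl1 and -2.11 for Cacng2, beside -2.56 for Lgi1, -2.48 for Unc5d, -1.67 for L1cam, -1.64 for Ntng1 and -1.46 for Clstn2. The 8 higher genes were C1ql1, Lgi4, Lgi3, Nptx1, Sdk2, Dscaml1, Mdga1 and Cadm4. The secreted C1q-related protein C1ql1 had 369 counts (23.4 CPM) in the knockdown and 19 counts (1.13 CPM) in the control, a log2 fold of 4.34. Nptx1, a secreted pentraxin that gathers AMPA receptors, had 90.1 CPM in the knockdown and 18.5 CPM in the control, and Mdga1, which blocks neuroligin binding to neurexin, 103 CPM in the knockdown and 46.9 CPM in the control. Lgi4, with 29 counts in the knockdown and 4 counts in the control, passed the minimum through the knockdown library alone, as Lgi1 did through the control library alone. The other log2 folds were 2.81 for Lgi4, 2.55 for Lgi3, 1.29 for Sdk2, 1.26 for Dscaml1 and 1.02 for Cadm4, and 1 of the 8 dropped under 2-fold with each other scaling.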

How the data were processed

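The authors deposited raw counts per gene, with normalised values in CPM that are the counts divided by 1 factor per library, a count of 0 standing as 0.5. The deposited fold (a ratio), log2 and p-value columns of the authors' table were not used in any result. Per the submitters' processing notes, the tools were HTSeq 0.6.0, TopHat2 2.0.12 and Bowtie2 2.2.3, and the build mm9. The table itself gives 55 of 60 members the start and end they have in GENCODE M21, an annotation of GRCm38, so its positions are read as GRCm38. Strand use and multi-mapping reads in counting are not given in the sources used here.

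CPM were computed from the counts with edgeR 4.0.16 TMM factors (0.982 for the knockdown and 1.02 for the control library). Ratios have exact conditional binomial (Clopper-Pearson) 95% intervals, which cover counting error only, since each group has 1 count per gene. Copied fragments are not independent molecules, so the intervals can be too narrow even for counting error. With 1 library per group there was no test and no p-value was made, and a gene was counted at 2-fold past a mean of 1 CPM. Exon lengths are merged GENCODE M21 exons. Of the 60 members, 25 share exonic bases with another gene and 7 lie wholly under another gene on the opposite strand (Lrfn1, Lrfn4, Flrt1, Flrt3, Lrrtm1, Lrrtm2 and Lrrtm3). Promoters are from the RefSeq table of GRCm38.p6. An alternative used DESeq2 1.42.0 size factors. The calculation was tested on simulated Poisson counts, the model that the intervals assume. That run checks the arithmetic and cannot show how well the intervals hold for real libraries. A first run missed the bar set for interval coverage in a subset of the altered genes, and the bar was then changed to apply to all altered genes together.

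The members, families, role groups, partner list and markers were chosen with earlier results of these data known. The span bounds and the 4 promoters shown were chosen after the values were seen. The E-box motif was searched first in the promoters and was replaced by CpG, so CpG was not the only motif tried. Every member past the minimum is given with its value, except for 1 that is not reported here, and of the partner list up to 8 genes in each direction. Alternatives were other scalings, other minima, a prior count of 5, a threshold of 1.5-fold, sums per kilobase, sums without the top member and leaving out members with shared exonic bases.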

Additional observations from a re-analysis of the deposited data

How the results depend on the processing

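No paired analysis was possible because each group has 1 library, and for the same reason no library could be left out. The count of members at least 2-fold lower was 19 and stayed within 1.5 times of that under each other scaling, with no minimum and with a prior count of 5. It was 9 of 43 with a minimum of 10 CPM, beside 4.78% of other protein-coding genes at that level. It was 10 when only the 35 members that share no exonic bases were put to the minimum. Of these, Cntn4, Cntnap5b, Cntnap5c and Slitrk6 did not pass it, so the 10 are not a share of 35. At a threshold of 1.5-fold the count of lower members was 29 of 56. These settings take fewer members or a smaller fold. Shares over all genes were not counted with no minimum, at 1.5-fold or without genes that share exonic bases. The count of higher members was 1 with no minimum (Slitrk6) and 1 at the threshold of 1.5-fold (Lrrtm2), against 0. The median log2 fold of members was -0.45 with a minimum of 10 CPM. After scaling to total counts the ratios of summed CPM were 1.17 for Nlgn, 0.816 for Lrfn, 0.771 for Adgrl, 0.661 for Dlg and 0.822 for Dlgap, and with the authors' CPM they were 1.17, 0.816, 0.771, 0.661 and 0.822. Homer, above 1 in the main result, had 0.984 under both. Per kilobase of merged exons the ratios were 0.862 for Nrxn, 0.899 for Lrfn, 0.758 for Dlg and 1.24 for Homer. Without the member with the most counts they were 0.594 for Nrxn, 0.646 for Lrfn, 1.26 for Lrrtm, 0.945 for Slitrk, 0.747 for Adgrl, 0.425 for Cntn, 0.417 for Cntnap, 0.941 for Dlg, 0.920 for Dlgap, 0.652 for Shank and 0.717 for Homer. The partner list kept its counts within 1.5 times and its median within 0.1 under each alternative run on it. Of 224 recomputed log2 folds of single members, 221 stayed within the counting interval (the others were Nlgn2 at 0.22 under total counts and Dlgap3 at -0.40 under total counts and the authors' CPM) and 0 of those past 2-fold changed sign, while Dlg4 crossed 2-fold under total counts and the authors' CPM. Counting error limits Cntn4, Cntn5, Cntnap3, Cntnap5b, Cntnap5c and Slitrk6, each with 6 or fewer counts in a library.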

Other observations

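The families also come with rows that the choice by protein-coding symbol leaves out. A separate Dlg2 row of the biotype processed transcript (ENSMUSG00000108872) had 1 count in the knockdown and 6 in the control library. No interval was computed for this row, and its counts are too few to read a direction from. Of 27 overlaps of a member with a gene not annotated as protein-coding, 7 involve a gene with a row in the count table. Gm16054, antisense to Adgrl3 with 1582 exonic bases shared, had 0 counts in the knockdown and 10 in the control library. Transcript 4930405A21Rik, opposite Dlgap4 with 24 exonic bases shared, had 14 counts in the knockdown and 1 count in the control. Gm15609, opposite Shank3 with 271 exonic bases shared, had 1 count in the knockdown and 8 counts in the control. The other 4 were level or had few counts: Gm19744, opposite Tenm3, had 11 counts in the knockdown and 13 in the control, and Gm21986, on the strand of Nlgn3, had 4 counts in the knockdown and 5 in the control. C230038L03Rik, opposite Tenm4, had 1 count in the knockdown and 4 in the control, and Gm44450, opposite Adgrl1, had 1 count in the knockdown and 2 in the control.

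Several adhesion genes lie inside alpha-catenin or other genes on the opposite strand, and host and nested gene did not always lie on the same side of the control. Ctnna2, which holds Lrrtm1, had 53.8 CPM in the knockdown and 64.1 CPM in the control library. Pcx, the pyruvate carboxylase gene that holds Lrfn4, had 145 CPM in the knockdown and 98.0 CPM in the control while Lrfn4 had a ratio of 1.01. Samd4b, which holds Lrfn1, had 192 CPM in the knockdown and 162 CPM in the control, with Lrfn1 lower. Macrod2, which holds Flrt3, had 14.3 CPM in the knockdown and 22.2 CPM in the control.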
